A study of Sus scrofa with 6 samples.

Results

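Transcripts of the enzymes that make, break down and read the second messengers cAMP and cGMP were compared between pig pluripotent cells and pig fibroblasts. The 56 genes were chosen by symbol from the 20131 genes of a TPM table. They are the phosphodiesterases (PDE, a number and a letter), adenylyl cyclases (ADCY and a number), A-kinase anchoring proteins (AKAP and a number), subunits of protein kinase A (PKA; PRKAR and PRKAC), and GUCY1A1, GUCY1A2, GUCY1B1, PRKG1, PRKG2, RAPGEF3, RAPGEF4 and CREB1. The rule reads names and no measured value, but the family was put forward with the difference between the 2 cell types already known, so its counts describe these libraries and support nothing further. CREM, also in the rule, matched no row by symbol and was not analysed here. TPM, a transcript count scaled to a fixed total, is a level per length of transcript, so levels of different genes can be set beside each other.

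The first group was 4 libraries of pgEpiSC, stem cells taken from the epiblast of embryos before gastrulation at embryonic day 10. The second was 2 libraries of pEF, porcine embryonic fibroblasts from fetuses at embryonic day 30. The series calls the libraries of each group biological replicates; no treatment or genotype is given for either group, nor whether the libraries came from separate lines or animals. If they share a source, p-values measure only the spread between these samples. In bulk RNA, fewer cells that express a gene and less RNA per cell cannot be told apart.

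Adenylyl cyclases make cAMP from ATP under the control of G proteins, and phosphodiesterases destroy cAMP and cGMP. Within PKA, regulatory subunits hold catalytic subunits inactive until cAMP binds, and anchoring proteins tether the whole enzyme, often beside a phosphodiesterase, to one place in the cell. Nitric oxide acts through soluble guanylyl cyclase, a dimer of an alpha and a beta subunit, which makes cGMP for the kinases PRKG1 and PRKG2. In fibroblasts cAMP is known to restrain the change into contractile myofibroblasts, and in smooth muscle cGMP relaxes contraction.

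Per library the table adds up to 93556 to 320206 TPM, below the 1000000 of a full TPM column, and read depth per library cannot be read from it. The pgEpiSC libraries 1 and 4 had the lowest sums of their group and the highest correlation across genes of any pair (r = 0.990, against 0.935 to 0.963 for the other pgEpiSC pairs and 0.956 for the pEF pair). Values were compared as deposited and after median-ratio scaling, which moved the median log2 fold over the 10424 tested genes from 0.48 to 0.06. All 8 epiblast markers tested (NANOG and LIN28A among them) were higher in pgEpiSC and all 9 fibroblast markers tested (COL1A2 and PDGFRA among them) were lower. For comparison, 18.0% of all tested genes were called higher and 9.43% lower. The epiblast markers all passed the filter through pgEpiSC alone, and PDGFRA, PDGFRB, LUM and PRRX1 through pEF alone. The filter fixed the direction of these genes, so their counts show nothing by themselves. Of the 8 smooth muscle and pericyte markers 7 were tested, and all 7 were lower in pgEpiSC, where MYH11 and LMOD1 entered the test through pEF alone and could only fall. The summed level of the 8 was 731 and 2891 TPM in pEF against 5.10 to 11.6 TPM in pgEpiSC, with ACTA2, DES and MYH11 among those expressed in pEF and the pericyte gene RGS5 at 0.0182 to 0.0396 TPM in pgEpiSC against 0.00742 and 0.0317 TPM in pEF. The part of these markers in the results was not tested.

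Of the 56 members 36 reached 1 TPM in at least 2 libraries and were tested, 4 were higher in pgEpiSC and 12 were lower (limma on log2(TPM + 1), adjusted p below 0.05 over 10424 genes), and 20 were not called. Across all tested genes 18.0% were called higher and 9.43% lower. The median log2 fold of the tested members was -0.61, beside 0.48 for all tested genes. After scaling 8 members were higher and 21 lower, where 28.6% of all tested genes were higher and 29.8% lower, with a median of -1.11 beside 0.06. With pgEpiSC libraries 1 and 4 averaged, 6 members were higher and 10 lower as deposited. All 16 members called as deposited were called in the same direction after scaling. The 16 also had groups without overlap. Among the 36 tested members the pgEpiSC libraries all lay above pEF for 10 and all below for 16, where 36.6% and 12.9% of tested genes did so; after scaling the counts were 9 and 22 against 36.3% and 34.6%. Of the 16 called members 14 passed the filter in 1 cell type alone, so the filter fixed or, for RAPGEF4, favoured their direction and their count shows nothing by itself.

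**Figure D1:**
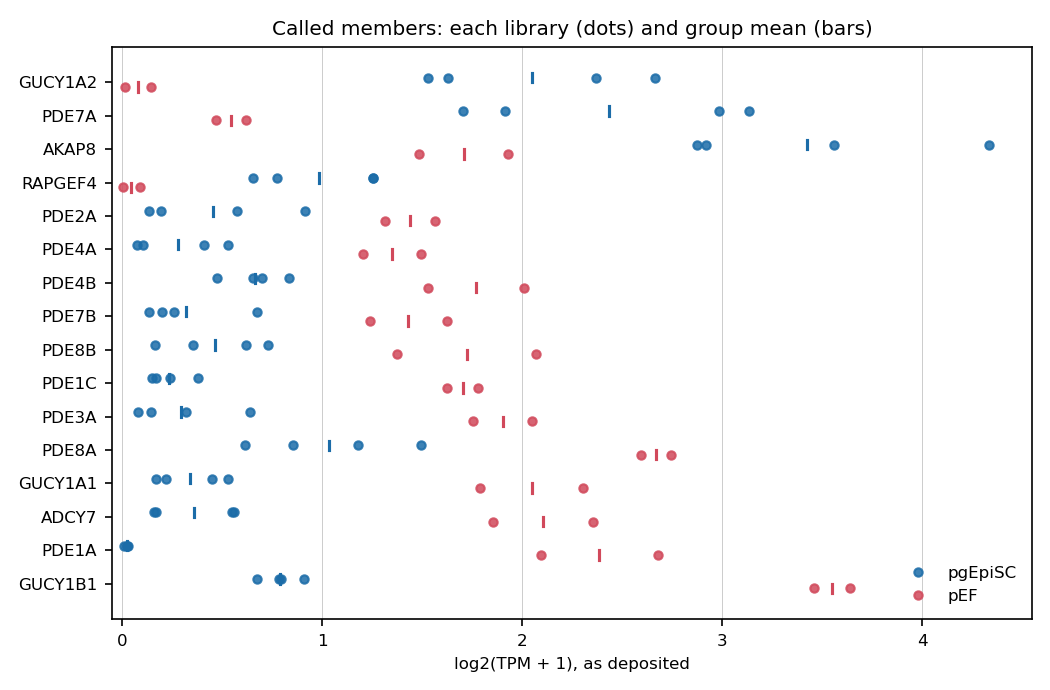
Level of each of the 16 called members in every library, on the log2(TPM + 1) scale (x axis), with the 4 pgEpiSC libraries in blue, the 2 pEF libraries in red and a short bar at each group mean. For the 4 genes at the top all pgEpiSC dots lie to the right of the pEF dots, and for the 12 below them all lie to the left.

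The cAMP-specific phosphodiesterases were split between the cell types by gene. Of the 8 genes, 7 were tested, 1 rose (PDE7A), 5 fell (PDE4A, PDE4B, PDE7B, PDE8A and PDE8B) and PDE4D was not called as deposited; over all tested genes 18.0% rose and 9.43% fell. Of the 6 called, all but PDE8A passed the filter in 1 cell type alone, which fixed their direction. PDE7A (ENSSSCG00000006218), a cAMP-specific enzyme that rolipram does not inhibit, was at 2.26, 7.78, 6.91 and 2.77 TPM in pgEpiSC replicates 1 to 4, and 0.385 and 0.538 TPM in the pEF replicates. Every pgEpiSC library was above both pEF libraries. The log2 fold was 1.89 ± 0.56 (SE, adjusted p = 0.0104). The call was lost without a filter (adjusted p = 0.0832) and with a pseudocount of 5 (adjusted p = 0.0650). Its paralog PDE7B went the other way, at 0.0998, 0.196, 0.598 and 0.149 TPM in the pgEpiSC libraries and 2.08 and 1.36 TPM in the pEF libraries, with a log2 fold of -1.11 ± 0.35 (SE, adjusted p = 0.0151).

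PDE8A and PDE8B, enzymes of very high affinity for cAMP, were both lower in pgEpiSC. PDE8A was at 0.807, 1.81, 1.27 and 0.532 TPM in the pgEpiSC libraries and 5.04 and 5.71 TPM in the pEF libraries, the highest of the phosphodiesterases in the first pEF library. The groups did not overlap, and the log2 fold was -1.63 ± 0.52 (SE, adjusted p = 0.0174). PDE8B was at 0.278, 0.538, 0.661 and 0.120 TPM in the pgEpiSC libraries and 3.20 and 1.60 TPM in the pEF libraries, with pEF library 1 the higher of its pair and a log2 fold of -1.26 ± 0.40 (SE, adjusted p = 0.0154). Both lost their call as deposited without pgEpiSC replicate 4, at -1.49 with adjusted p = 0.0535 for PDE8A and -1.15 with adjusted p = 0.0525 for PDE8B.

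The PDE4 enzymes, the rolipram-sensitive cAMP-specific phosphodiesterases, are encoded by 4 genes that did not move together. PDE4A was at 0.0540, 0.444, 0.330 and 0.0760 TPM in the pgEpiSC libraries and 1.30 and 1.82 TPM in the pEF libraries, all pgEpiSC libraries below pEF, with a log2 fold of -1.07 ± 0.34 (SE, adjusted p = 0.0157). PDE4B was at 0.389, 0.623, 0.576 and 0.787 TPM in the pgEpiSC libraries and 3.03 and 1.89 TPM in the pEF libraries, also without overlap, with a log2 fold of -1.10 ± 0.42 (SE, adjusted p = 0.0459). Leaving out pgEpiSC replicate 1, 3 or 4 ended that call, at -1.04 with adjusted p = 0.0950, -1.10 with adjusted p = 0.0931 and -1.16 with adjusted p = 0.0566. PDE4D was at 1.81, 6.25, 3.35 and 1.49 TPM in the pgEpiSC libraries and 1.07 and 1.04 TPM in the pEF libraries. All of its pgEpiSC values were above pEF, but their spread was wide and the log2 fold of 0.90 ± 0.55 (SE, adjusted p = 0.219) was not called; after scaling it was 0.50 (adjusted p = 0.0410). PDE4C stayed below the filter, at 0.212 to 0.841 TPM in pgEpiSC against 0.0656 and 0.0219 TPM in pEF.

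Of the 8 phosphodiesterases that accept both nucleotides 6 were tested, 4 fell and 2 were not called, where 9.43% of all tested genes fell. None of the 4 reached 1 TPM in a pgEpiSC library, so they entered the test through pEF alone and could only fall. PDE1A (ENSSSCG00000023924), a calcium- and calmodulin-stimulated enzyme, was at 0.00724, 0.0170, 0.0228 and 0.0189 TPM in pgEpiSC replicates 1 to 4, and 3.26 and 5.40 TPM in the pEF replicates. It was near 0 in every pgEpiSC library and the third most abundant phosphodiesterase in both pEF libraries. The log2 fold was -2.36 ± 0.37 (SE, adjusted p = 4.79e-06), the largest fall among the phosphodiesterases. PDE1C, from the same calmodulin-stimulated family, was at 0.108, 0.180, 0.302 and 0.123 TPM in the pgEpiSC libraries and 2.44 and 2.08 TPM in the pEF libraries, with a log2 fold of -1.47 ± 0.35 (SE, adjusted p = 0.00152). PDE1B, the remaining PDE1 gene, was at 0.397 to 2.07 TPM in pgEpiSC against 0.0233 and 0.118 TPM in pEF, higher in every pgEpiSC library than in either pEF library. Its log2 fold of 0.87 ± 0.36 (SE, adjusted p = 0.0686) missed the threshold as deposited and was 0.70 (adjusted p = 0.00427) after scaling.

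PDE3A, a cGMP-inhibited enzyme that breaks down cAMP, was at 0.106, 0.558, 0.248 and 0.0572 TPM in the pgEpiSC libraries and 2.38 and 3.14 TPM in the pEF libraries. No pgEpiSC library reached 1 TPM, and the log2 fold was -1.61 ± 0.38 (SE, adjusted p = 0.00129). Its paralog PDE3B, which acts in insulin signalling in fat, was at 0.483, 2.07, 4.27 and 0.688 TPM in the pgEpiSC libraries and 0.191 and 0.122 TPM in the pEF libraries. All pgEpiSC values exceeded pEF, with pgEpiSC library 3 the highest and library 1 the lowest, and the log2 fold of 1.13 ± 0.45 (SE, adjusted p = 0.0542) was not called; after scaling it was 0.87 (adjusted p = 0.0442). PDE2A, which cGMP stimulates, was at 0.144, 0.886, 0.490 and 0.0981 TPM in the pgEpiSC libraries and 1.95 and 1.49 TPM in the pEF libraries with a log2 fold of -0.98 ± 0.37 (SE, adjusted p = 0.0442), a call lost without pgEpiSC replicate 1 (-0.90 with adjusted p = 0.104) or 4 (-0.88 with adjusted p = 0.124). PDE10A and PDE11A stayed below 1 TPM in every library.

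Among the cGMP-specific phosphodiesterases PDE5A, the target of sildenafil, was at 1.71, 3.55, 4.44 and 1.67 TPM in the pgEpiSC libraries and 3.36 and 8.96 TPM in the pEF libraries. pEF library 2 was the highest and pEF library 1 lay within the pgEpiSC range, so the groups overlapped as deposited, and the log2 fold of -0.85 ± 0.57 (SE, adjusted p = 0.276) was not called, whereas after scaling it was -1.33 (adjusted p = 0.00159). PDE6D, which belongs to the family by name but encodes a chaperone for prenylated proteins and no enzyme, was at 2.13 to 8.95 TPM in pgEpiSC against 2.77 and 4.72 TPM in pEF. Its log2 fold was 0.23 ± 0.57 (SE, adjusted p = 0.790) as deposited and -0.26 (adjusted p = 0.303) after scaling, so its direction turned with the scale and neither was called. The photoreceptor genes PDE6A, PDE6B and PDE6C and the high-affinity cGMP enzyme PDE9A were under 1 TPM in every library. PDE9A was at 0.173 to 0.699 TPM in pgEpiSC against 0.0336 and 0.0696 TPM in pEF, without overlap.

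Shares within a library do not move when a library is rescaled, so the paralogs were also set against their own family. They are given as a description, with no test. Of the TPM of the 3 PDE1 genes, PDE1B held 81.4 ± 6.94% (SD, n = 4) in pgEpiSC and 0.979 ± 0.809% (SD, n = 2) in pEF. Of the PDE3 pair, PDE3B held 86.9 ± 7.68% (SD, n = 4) in pgEpiSC and 5.58 ± 2.62% (SD, n = 2) in pEF. Of the PDE7 pair, PDE7A held 95.1 ± 2.29% (SD, n = 4) in pgEpiSC and 22.0 ± 9.01% (SD, n = 2) in pEF. Of the 4 PDE4 genes, PDE4D held 68.6 ± 7.87% (SD, n = 4) in pgEpiSC and 20.8 ± 1.60% (SD, n = 2) in pEF. For each of these 4 genes the lowest pgEpiSC share was above the highest pEF share. The PDE8 pair differed from them, since PDE8A held 65.8 to 81.6% in pgEpiSC and 61.2 and 78.1% in pEF, with overlap. PDE8 fell as a pair, with both genes summed at 0.652 to 2.35 TPM in pgEpiSC and 8.23 and 7.30 TPM in pEF. This was not particular to PDE8. The PDE1 sum was also lower without overlap, at 0.513 to 2.27 TPM in pgEpiSC and 5.72 and 7.60 TPM in pEF. As deposited, the PDE3, PDE4 and PDE7 sums overlapped. As a part of the listed TPM, the PDE3 and PDE4 sums were lower in pgEpiSC too, without overlap. The PDE7 sum overlapped on that scale as well.

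**Figure D2:**
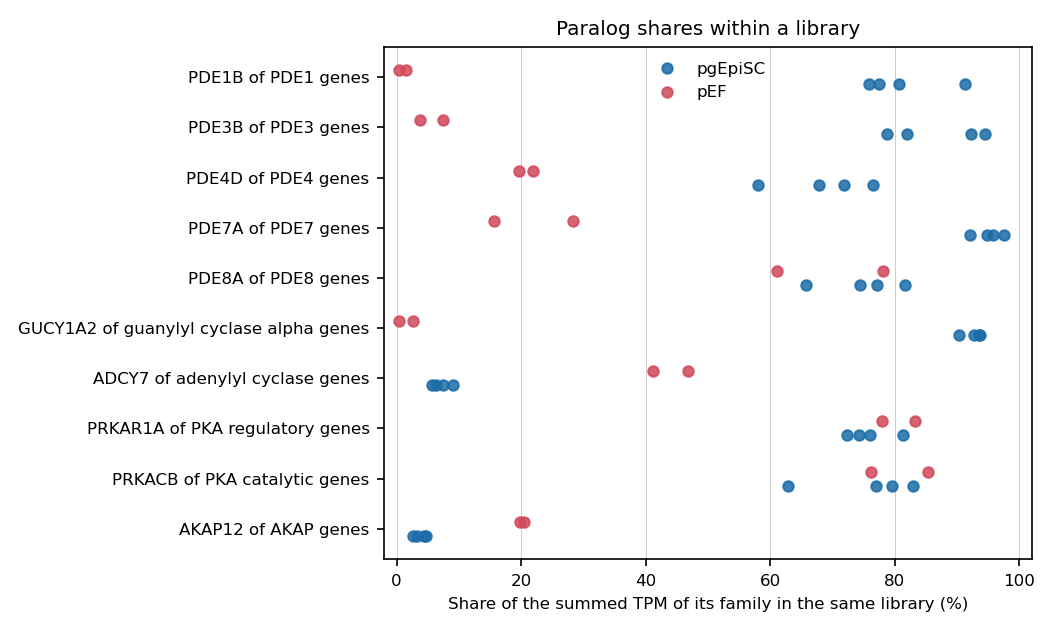
Share of 10 genes in the summed TPM of their own family within each library (x axis, percent), with pgEpiSC libraries in blue and pEF libraries in red; the genes were chosen after their values were seen. The groups stand apart for PDE1B, PDE3B, PDE4D, PDE7A, GUCY1A2, ADCY7 and AKAP12 and overlap for PDE8A, PRKAR1A and PRKACB.

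The 21 phosphodiesterase genes that encode enzyme subunits (PDE6D left out) summed, in TPM, to 9.43, 29.4, 27.2 and 9.68 in pgEpiSC replicates 1 to 4, against 29.9 and 35.4 in the pEF replicates. Every pgEpiSC sum was below both pEF sums, with library 2 close to pEF library 1. As a part of the listed TPM the family held 58.3 to 130.0 per 1000000 in pgEpiSC and 319 and 243 per 1000000 in pEF. PDE7A was the leading gene in all 4 pgEpiSC libraries, at 26.1 ± 1.97% (SD, n = 4) in pgEpiSC and 1.40 ± 0.163% (SD, n = 2) in pEF. PDE5A was among the leading 3 genes in every library of both cell types, and PDE4D held 17.04 ± 3.97% (SD, n = 4) in pgEpiSC and 3.27 ± 0.459% (SD, n = 2) in pEF. In pEF the leading genes were PDE8A in the first library and PDE5A in the second, with PDE8A at 6.22 ± 1.67% (SD, n = 4) in pgEpiSC and 16.5 ± 0.535% (SD, n = 2) in pEF and PDE1A at 0.103 ± 0.0623% (SD, n = 4) in pgEpiSC and 13.1 ± 3.05% (SD, n = 2) in pEF. Summed by substrate, the dual-specificity genes held 15.4 to 26.7% in pgEpiSC and 34.4 and 35.0% in pEF, without overlap. The cAMP-specific genes held 52.9 to 63.4% in pgEpiSC and 54.2 and 39.4% in pEF, and the cGMP-specific genes 15.4 to 21.5% in pgEpiSC and 11.4 and 25.5% in pEF, both with overlap.

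**Figure D3:**
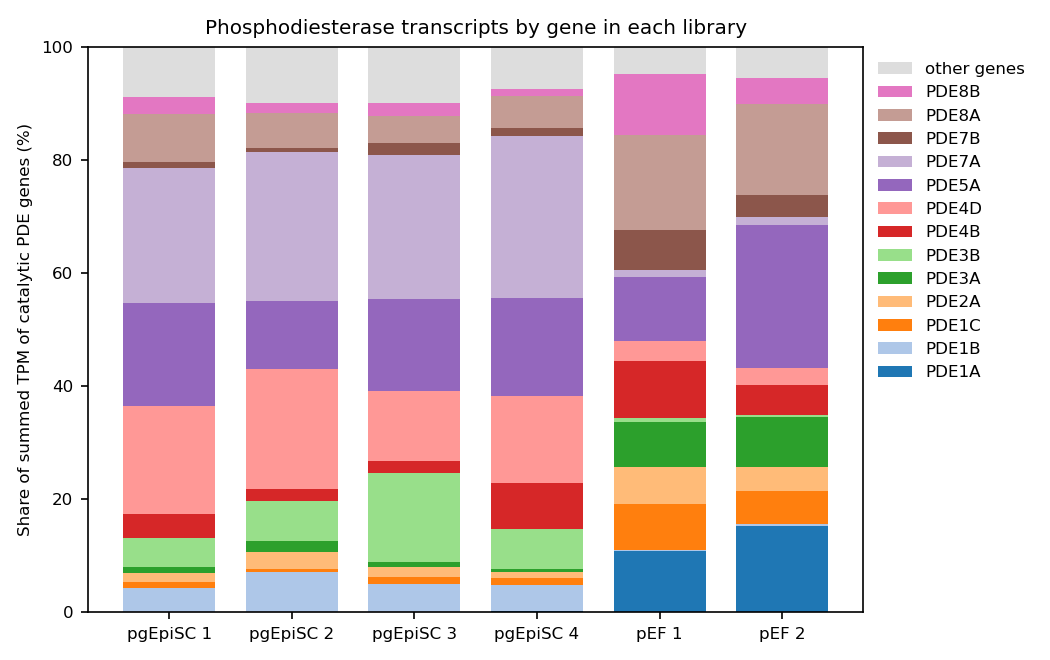
Share of each phosphodiesterase gene in the summed TPM of the 21 genes for enzyme subunits, 1 stacked bar per library; genes with a group mean share of at least 5% are drawn alone and the rest are grey. PDE7A, PDE4D and PDE3B take a wide part of the pgEpiSC bars and a narrow part of the pEF bars, where PDE1A, PDE1C, PDE3A, PDE8A and PDE8B are wide.

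Of the 10 adenylyl cyclases 3 were tested, 1 fell and 2 were not called as deposited, where 18.0% of all tested genes rose and 9.43% fell. ADCY7, which G protein beta-gamma subunits stimulate, was at 0.126, 0.464, 0.472 and 0.119 TPM in pgEpiSC replicates 1 to 4, and 2.61 and 4.11 TPM in the pEF replicates. No pgEpiSC library reached 0.5 TPM and both pEF libraries exceeded 2.5 TPM, so ADCY7 entered the test through pEF alone and could only fall. The log2 fold was -1.74 ± 0.40 (SE, adjusted p = 0.00107). ADCY6, which calcium inhibits, was at 0.647, 2.24, 2.03 and 0.683 TPM in the pgEpiSC libraries and 2.22 and 3.70 TPM in the pEF libraries, with overlap and a log2 fold of -0.77 ± 0.52 (SE, adjusted p = 0.273); after scaling it was -1.22 (adjusted p = 2.18e-04). ADCY3, found in cilia and in olfactory neurons, was at 0.574 to 1.68 TPM in pgEpiSC against 0.140 and 0.359 TPM in pEF, without overlap, and its log2 fold of 0.72 ± 0.37 (SE, adjusted p = 0.149) was not called as deposited but was 0.55 (adjusted p = 0.0211) after scaling.

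As a share of all cyclase TPM, ADCY7 held 7.16 ± 1.51% (SD, n = 4) in pgEpiSC and 44.0 ± 4.000% (SD, n = 2) in pEF, ADCY3 30.9 ± 9.80% (SD, n = 4) in pgEpiSC and 3.05 ± 0.769% (SD, n = 2) in pEF, and ADCY6 35.3 ± 4.37% (SD, n = 4) in pgEpiSC and 38.5 ± 1.92% (SD, n = 2) in pEF. The shares of ADCY3 and ADCY7 did not overlap between the cell types and that of ADCY6 did. Among the cyclases below the filter, ADCY9 reached 0.0170 to 0.154 TPM in pgEpiSC against 0.519 and 1.12 TPM in pEF. The calmodulin-stimulated ADCY1 and ADCY8, the bicarbonate-sensitive ADCY10, and ADCY2, ADCY4 and ADCY5 stayed under 1 TPM in every library.

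Of the 6 PKA subunits 5 were tested. None was called as deposited, where 18.0% of all tested genes were higher and 9.43% lower. After scaling 4 of the 5 were lower in pgEpiSC, where 29.8% of all tested genes were lower. PRKAR1A, a type I regulatory subunit, was the most abundant member in every library, at 23.8, 42.9, 30.1 and 20.03 TPM in pgEpiSC replicates 1 to 4, and 43.8 and 64.4 TPM in the pEF replicates. All pgEpiSC values were below both pEF values, with library 2 close to pEF library 1. Its log2 fold was -0.90 ± 0.49 (SE, adjusted p = 0.166), and after scaling -1.48 (adjusted p = 0.00253). PRKAR2A, a type II subunit, was at 3.37, 9.63, 5.43 and 3.76 TPM in the pgEpiSC libraries and 6.15 and 14.2 TPM in the pEF libraries, with a log2 fold of -0.77 ± 0.56 (SE, adjusted p = 0.316) and, after scaling, -1.29 (adjusted p = 9.85e-04). PRKAR2B, the other type II subunit, was at 1.81 to 6.03 TPM in pgEpiSC against 1.79 and 2.40 TPM in pEF, with a log2 fold of 0.49 ± 0.56 (SE, adjusted p = 0.547) as deposited and 0.03 (adjusted p = 0.852) after scaling. PRKAR1B stayed below the filter at 0.280 to 0.787 TPM in pgEpiSC against 0.840 and 1.48 TPM in pEF.

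The regulatory subunits together held 159 to 194 per 1000000 of the listed TPM in pgEpiSC and 562 and 567 per 1000000 in pEF, without overlap. As deposited their sum was 26.4 to 59.3 TPM in pgEpiSC and 52.5 and 82.5 TPM in pEF, with overlap. Of regulatory TPM, PRKAR1A held 76.0 ± 3.87% (SD, n = 4) in pgEpiSC and 80.7 ± 3.70% (SD, n = 2) in pEF, with overlap, and the PRKAR2A shares overlapped too. PRKAR2B and PRKAR1B had shares without overlap, PRKAR2B at 8.94 ± 2.08% (SD, n = 4) in pgEpiSC and 3.16 ± 0.350% (SD, n = 2) in pEF and PRKAR1B at 1.23 ± 0.211% (SD, n = 4) in pgEpiSC and 1.69 ± 0.136% (SD, n = 2) in pEF. PRKACB, a catalytic subunit, was at 4.28 to 7.77 TPM in pgEpiSC against 8.39 and 7.97 TPM in pEF and PRKACA at 0.916 to 4.58 TPM in pgEpiSC against 1.44 and 2.50 TPM in pEF. Their log2 folds were -0.46 ± 0.54 (SE, adjusted p = 0.549) and -0.03 ± 0.54 (SE, adjusted p = 0.977) as deposited, and -0.99 (adjusted p = 0.0146) and -0.46 (adjusted p = 0.0408) after scaling; as deposited the sign of PRKACA changed with the setting. Of catalytic TPM, PRKACB held 62.9 to 83.0% in pgEpiSC and 85.4 and 76.2% in pEF, with overlap. The ratio of summed regulatory to summed catalytic TPM was 5.44, 4.80, 4.63 and 4.89 in pgEpiSC replicates 1 to 4, against 5.35 and 7.88 in the pEF replicates, with overlap.

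Of the 10 anchoring proteins 7 were tested, 1 rose and 6 were not called, where 18.0% of all tested genes rose and 9.43% fell. AKAP8, a nuclear anchoring protein that takes part in chromosome condensation, was at 6.57, 19.1, 10.8 and 6.34 TPM in pgEpiSC replicates 1 to 4, and 1.80 and 2.81 TPM in the pEF replicates. Library 2 was the highest, and all pgEpiSC values were above both of pEF. The log2 fold was 1.71 ± 0.56 (SE, adjusted p = 0.0189), and the call was lost without pgEpiSC replicate 3 (1.67 with adjusted p = 0.0679), without a filter (adjusted p = 0.0865) and with a pseudocount of 5 (adjusted p = 0.0575). AKAP9, the large anchoring protein of the centrosome and Golgi, was at 7.06, 12.7, 16.5 and 6.80 TPM in the pgEpiSC libraries and 3.12 and 5.19 TPM in the pEF libraries. It too lay above pEF in every pgEpiSC library, but its log2 fold of 1.13 ± 0.55 (SE, adjusted p = 0.117) was not called, nor was that after scaling, 0.64 (adjusted p = 0.0537). AKAP12 (gravin), a scaffold at the cell cortex, was at 0.463, 2.51, 1.80 and 0.570 TPM in the pgEpiSC libraries and 2.71 and 4.57 TPM in the pEF libraries, lower in every pgEpiSC library. The groups did not overlap; its log2 fold was -1.06 ± 0.53 (SE, adjusted p = 0.129), not called, and after scaling -1.55 (adjusted p = 1.46e-04).

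Within the anchoring family AKAP8 held 33.8 ± 4.94% (SD, n = 4) in pgEpiSC and 12.9 ± 0.422% (SD, n = 2) in pEF, AKAP9 35.6 ± 7.67% (SD, n = 4) in pgEpiSC and 23.0 ± 0.281% (SD, n = 2) in pEF and AKAP12 3.75 ± 1.03% (SD, n = 4) in pgEpiSC and 20.2 ± 0.426% (SD, n = 2) in pEF, each without overlap. AKAP1, on the outer mitochondrial membrane, was at 1.03 to 6.86 TPM in pgEpiSC against 1.37 and 1.86 TPM in pEF. AKAP11 was at 1.29 to 7.003 TPM in pgEpiSC against 1.98 and 4.29 TPM in pEF, AKAP10 at 0.435 to 2.30 TPM in pgEpiSC against 1.02 and 1.90 TPM in pEF and AKAP7 at 0.415 to 1.02 TPM in pgEpiSC against 1.06 and 0.484 TPM in pEF. The log2 folds of AKAP1, AKAP11 and AKAP7 (0.47, -0.04 and 0.01) changed sign with the setting and were not called, and that of AKAP10 was -0.28, and after scaling -0.67 (adjusted p = 0.00497). Below the filter were AKAP5 at 0.286 to 1.12 TPM in pgEpiSC against 0.221 and 0.381 TPM in pEF, AKAP6, the nuclear envelope anchor of muscle, at 0.0166 to 0.0799 TPM in pgEpiSC against 0.220 and 0.697 TPM in pEF, and the sperm protein AKAP3 at 0.0361 to 0.234 TPM in pgEpiSC against 0.149 and 0.148 TPM in pEF. The 2 symbols that carry further letters after the stem, and are outside the rule, were AKAP8L at 3.62 to 15.2 TPM in pgEpiSC against 3.07 and 3.97 TPM in pEF and PDE4DIP, a centrosomal and Golgi protein, at 0.295 to 0.889 TPM in pgEpiSC against 1.12 and 3.87 TPM in pEF; neither was called as deposited. Their log2 folds were 0.78 ± 0.58 (SE, adjusted p = 0.323) and -1.05 ± 0.43 (SE, adjusted p = 0.0596).

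The cGMP arm had the largest folds of all members, in both directions. GUCY1B1 (ENSSSCG00000008870), the beta subunit of soluble guanylyl cyclase, was at 0.721, 0.732, 0.880 and 0.595 TPM in pgEpiSC replicates 1 to 4, and 11.5 and 10.01 TPM in the pEF replicates. All 4 pgEpiSC libraries were under 1 TPM and both pEF libraries at 10 TPM or more, and the log2 fold was -2.76 ± 0.53 (SE, adjusted p = 1.07e-04). GUCY1A1, the alpha-1 subunit, fell with it, at 0.163, 0.365, 0.446 and 0.127 TPM in the pgEpiSC libraries and 2.46 and 3.95 TPM in the pEF libraries, with a log2 fold of -1.71 ± 0.40 (SE, adjusted p = 0.00110). GUCY1A2 (ENSSSCG00000024613), the alpha-2 subunit, did the reverse at 2.10, 5.33, 4.17 and 1.89 TPM in pgEpiSC replicates 1 to 4, and 0.0101 and 0.104 TPM in the pEF replicates. Its pEF values were near 0, and the log2 fold was 1.97 ± 0.51 (SE, adjusted p = 0.00304); without a filter its adjusted p was 0.0528. GUCY1B1 and GUCY1A1 entered the test through pEF alone and GUCY1A2 through pgEpiSC alone, which fixed their direction. As a ratio of mean TPM, PDE1A fell further than GUCY1B1. The PDE1A means were 0.0165 TPM in pgEpiSC and 4.33 TPM in pEF, and those of GUCY1B1 were 0.732 and 10.7 TPM.

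Of alpha subunit TPM, GUCY1A2 held 92.6 ± 1.57% (SD, n = 4) in pgEpiSC and 1.49 ± 1.53% (SD, n = 2) in pEF. The summed alpha level overlapped as deposited, in TPM, at 2.26, 5.70, 4.61 and 2.02 in pgEpiSC replicates 1 to 4, against 2.47 and 4.05 in the pEF replicates. As a part of the listed TPM the alpha sum was lower in pgEpiSC, without overlap. It held 12.1 to 22.1 per 1000000 in pgEpiSC and 26.4 and 27.8 per 1000000 in pEF. The kinase PRKG1 was at 0.371, 2.27, 2.14 and 0.937 TPM in the pgEpiSC libraries and 2.74 and 5.83 TPM in the pEF libraries, with a log2 fold of -1.14 ± 0.54 (SE, adjusted p = 0.109), not called, and after scaling -1.63 (adjusted p = 4.26e-04). PRKG2 stayed under 1 TPM in every library, at 0.234 to 0.778 TPM in pgEpiSC against 0.0745 and 0.459 TPM in pEF. The pEF libraries that held GUCY1B1, GUCY1A1, PDE1A and PDE3A also held the smooth muscle markers given above, whose part in these levels was not tested. Of the 6 endothelial markers 5 matched a row and none passed the filter; their summed level was 0.180 and 0.238 TPM in pEF against 0.272 to 1.53 TPM in pgEpiSC. In pEF, KDR was listed at 0 in both libraries, CDH5 and TEK in 1 each, TIE1 was at 0.00746 and 0.00575 TPM, and PECAM1 held most of the sum.

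Of the other readers of cAMP, RAPGEF4 (EPAC2), an exchange factor for RAP that cAMP activates directly, was at 0.713, 1.39, 1.39 and 0.573 TPM in the pgEpiSC libraries and 0.00321 and 0.0637 TPM in the pEF libraries. The groups did not overlap and the log2 fold was 0.94 ± 0.35 (SE, adjusted p = 0.0392). RAPGEF4 passed the filter through pgEpiSC alone, and without pgEpiSC replicate 2 or 3 it fell below the filter. Its call was also lost without a filter, with a pseudocount of 5, without the variance trend and with the replicate block (adjusted p = 0.0878, 0.108, 0.141 and 0.0887). RAPGEF3 (EPAC1) was at 0.0153 to 0.115 TPM in pgEpiSC against 0.00342 and 0.0159 TPM in pEF. CREB1, a transcription factor that PKA phosphorylates, was at 5.94, 10.7, 9.14 and 6.47 TPM in the pgEpiSC libraries and 2.84 and 4.98 TPM in the pEF libraries, all pgEpiSC values above pEF, with a log2 fold of 0.89 ± 0.54 (SE, adjusted p = 0.226), not called, and 0.40 (adjusted p = 0.172) after scaling.

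**Figure D4:**
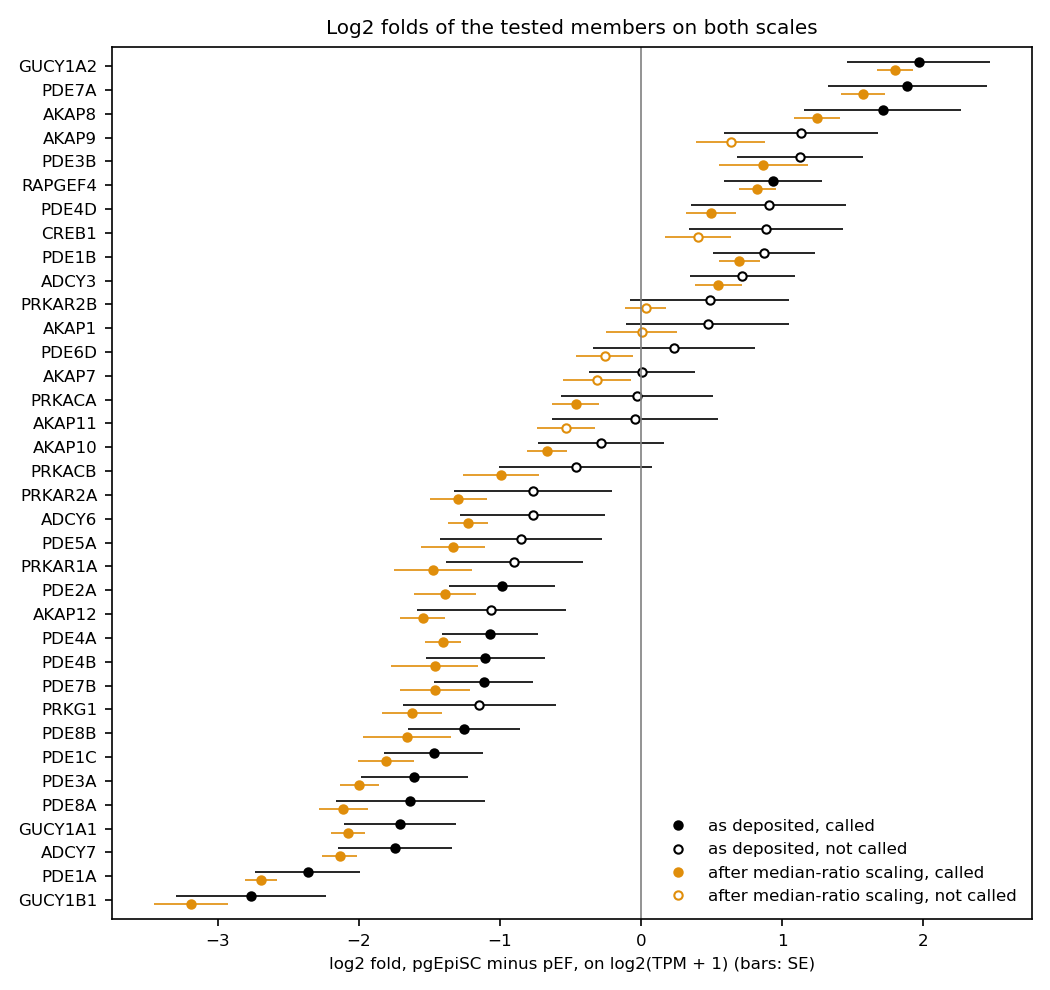
Log2 fold (pgEpiSC minus pEF, on the log2(TPM + 1) scale, x axis) with its SE for the 36 tested members, as deposited in black and after median-ratio scaling in orange, filled where called. Scaling moves every tested member to the left. No called member changes side, though the filter had fixed, or for RAPGEF4 favoured, the direction of 14 of the 16. PDE6D and AKAP7 cross 0 without being called.

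As deposited, the calls depended on having 2 pEF libraries. With the same genes tested and the remaining pEF library assumed to vary like the pgEpiSC group, 8 of the 16 calls held without pEF replicate 1 and 9 without pEF replicate 2, and no increase held in either case: PDE7A was at 1.81 with adjusted p = 0.240 and 1.96 with adjusted p = 0.176, GUCY1A2 at 1.91 with adjusted p = 0.164 and 2.03 with adjusted p = 0.123, AKAP8 at 1.49 with adjusted p = 0.283 and 1.94 with adjusted p = 0.137, and RAPGEF4 at 0.90 with adjusted p = 0.190 and 0.98 with adjusted p = 0.144. PDE2A, PDE4B and PDE8A were also lost both times, at log2 folds of -0.86 and -1.11, -0.86 and -1.34, and -1.71 and -1.56, and PDE8B without replicate 1, at -0.91. Of the 12 decreases, those of PDE2A, PDE4B, PDE7B, PDE8A and PDE8B were not called without a filter (adjusted p = 0.125, 0.113, 0.0503, 0.0587 and 0.0840). Without the variance trend PDE2A, PDE4A, PDE4B, PDE7B and PDE8B were not called (adjusted p = 0.127, 0.0918, 0.0820, 0.0813 and 0.0536). With the replicate block PDE2A, PDE4A and PDE4B were not called (adjusted p = 0.147, 0.0594 and 0.0717). PDE2A and PDE4B were also lost with a pseudocount of 5 (adjusted p = 0.0697 and 0.0530) and with pgEpiSC replicates 1 and 4 averaged (adjusted p = 0.111 and 0.0738), and PDE4B with a pseudocount of 0.1 (adjusted p = 0.0607). With scaling and the same genes tested all 16 were called without either pEF library. Where the filter was applied again, 11 of the 16 dropped below it and, as deposited, 0 were called.

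The rest of the pathway was read from 5 lists of genes. Of 7 G protein alpha genes matched, 6 were tested, 0 rose and 1 fell. After scaling 0 were higher and 4 lower. Across all tested genes 18.0% were called higher and 9.43% lower as deposited, and 28.6% and 29.8% after scaling. GNAI1, an inhibitory subunit, was at 1.67, 4.85, 3.56 and 2.12 TPM in the pgEpiSC libraries and 13.8 and 15.04 TPM in the pEF libraries, with a log2 fold of -1.997 ± 0.55 (SE, adjusted p = 0.00585). GNAI2, the most abundant of them, was at 15.6 to 71.4 TPM in pgEpiSC against 26.3 and 42.8 TPM in pEF and GNAI3 at 7.15 to 16.4 TPM in pgEpiSC against 6.598 and 11.4 TPM in pEF, neither called as deposited. After scaling GNAI2 was at -0.82 (adjusted p = 0.0217), and GNAQ and GNA11 were called lower too, at -1.32 and -1.42, while GNAI3 was not called. GNAS matched no row by symbol and was not analysed here. Of 29 receptors that couple to cAMP 2 were tested, 0 rose and 1 fell, the adenosine receptor ADORA2B, at 0.377, 0.607, 0.478 and 0.221 TPM in the pgEpiSC libraries and 6.68 and 6.75 TPM in the pEF libraries. It was below 1 TPM in every pgEpiSC library, so it entered the test through pEF alone and could only fall. Its log2 fold was -2.45 ± 0.48 (SE, adjusted p = 1.26e-04). The receptor for vasoactive intestinal peptide VIPR1 was at 0.463 to 1.47 TPM in pgEpiSC against 0.0312 and 0.0404 TPM in pEF and not called as deposited (0.84, adjusted p = 0.0589), but called higher after scaling, at 0.71 (adjusted p = 0.00325). VIPR1 passed the filter through pgEpiSC alone.

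Of 15 genes for PKA inhibitors, CREB partners and related proteins 8 were tested, 0 rose and 2 fell (0 and 3 after scaling). Both that fell as deposited were inhibitor peptides of the PKA catalytic subunit. Of all tested genes 18.0% rose and 9.43% fell, and after scaling 28.6% were higher and 29.8% lower. PKIA was at 1.45, 4.37, 3.81 and 2.72 TPM in the pgEpiSC libraries and 14.6 and 21.3 TPM in the pEF libraries, with a log2 fold of -2.25 ± 0.55 (SE, adjusted p = 0.00191). PKIB was at 0.0323, 0.0439, 0.0427 and 0.0361 TPM in the pgEpiSC libraries and 2.97 and 1.83 TPM in the pEF libraries, near 0 in pgEpiSC, with a log2 fold of -1.69 ± 0.33 (SE, adjusted p = 1.41e-04). PKIB entered the test through pEF alone and could only fall. The third inhibitor, PKIG, was at 0.561 to 2.52 TPM in pgEpiSC against 1.75 and 3.76 TPM in pEF. It was not called as deposited (-0.74) but was called lower after scaling, at -1.18 (adjusted p = 3.59e-04). The CREB coactivators CREBBP and EP300 and the CREB relative ATF1 were not called, ATF1 at 7.81 to 22.4 TPM in pgEpiSC against 7.74 and 13.5 TPM in pEF.

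Of 17 genes known to respond to cAMP 8 were tested, 1 rose and 3 fell (1 and 4 after scaling). Their median log2 fold was -1.01, beside 0.48 for all tested genes. Of all tested genes 18.0% rose and 9.43% fell, and after scaling 28.6% were higher and 29.8% lower. DUSP1, a phosphatase of MAP kinases, was at 4.38, 7.68, 4.87 and 4.27 TPM in the pgEpiSC libraries and 25.7 and 48.8 TPM in the pEF libraries, with a log2 fold of -2.56 ± 0.53 (SE, adjusted p = 2.61e-04). NR4A2, an orphan nuclear receptor, was at 0.249 to 0.354 TPM in pgEpiSC against 2.96 and 1.22 TPM in pEF (-1.20, adjusted p = 0.0135). JUNB was listed at 0 in all 4 pgEpiSC libraries and was at 19.0 and 26.9 TPM in pEF. NR4A2 and JUNB entered the test through pEF alone and could only fall. FOS, from the same set of early response genes as JUNB, was at 4.38 to 12.3 TPM in pgEpiSC against 7.11 and 22.1 TPM in pEF and not called. The gene that rose was BDNF, a neurotrophin, at 5.003, 19.8, 12.2 and 5.51 TPM in the pgEpiSC libraries and 1.71 and 2.89 TPM in the pEF libraries, with a log2 fold of 1.65 ± 0.57 (SE, adjusted p = 0.0280). These genes respond to other signals as well, so their levels give no reading of cAMP. Of 16 genes of nitric oxide, natriuretic peptides and cGMP 4 were tested, 0 rose and 1 fell (1 and 2 after scaling). The gene that fell was MYLK, the myosin light chain kinase, at 0.118 to 0.548 TPM in pgEpiSC against 10.97 and 47.6 TPM in pEF (-4.21, adjusted p = 2.62e-07). MYLK also entered the test through pEF alone. The nitric oxide synthases NOS2 and NOS3 were under 1 TPM in every library, and NOS1 was at 0.240 to 1.17 TPM in pgEpiSC against 0.00102 and 0.00781 TPM in pEF.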

How the data were processed

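RNA was measured by ribosomal RNA-depleted, strand-specific sequencing in 4 pgEpiSC and 2 pEF libraries, per the labels' protocols. The authors deposited 1 table of TPM values for 20132 genes, the unit taken from the table's name. Per the submitters' processing notes the tools included kallisto 0.44.0 and STAR 2.6.0c, without a stated role; the genome build is not given in the sources used here. TPM keeps no read depth, so no counting interval can be given.

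Ensembl identifiers were matched to pig symbols (14062 rows, 69.8%), and 2 rows that share a symbol were summed. All 6 value columns were used. Genes at 1 TPM or more in at least 2 libraries were tested with limma 3.58.1 in R 4.3.3 on log2(TPM + 1), with group as the only factor, a variance trend and Benjamini-Hochberg adjustment over all 10424 tested genes (two-sided, threshold 0.05); fold changes on this scale understate the change of low genes, and every adjusted p in the text comes from this test, or, where an alternative is named beside it, from the same test refitted over the genes that alternative leaves. A gene "called", or said to have risen or fallen, is past that threshold; groups overlap unless every library of one lies above every library of the other. Median-ratio scaling divided each library by the median ratio of its genes to their geometric mean, and the factors ran from 0.587 to 2.15. A library rescaling does not change shares within a family, which were computed over the listed members, without PDE6D for the phosphodiesterases. The fit was tested on simulated data. Tables and figures were made with pandas 2.3.3, numpy 2.4.6 and matplotlib 3.10.9 in Python 3.11.15.

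Members called in the test, and others with a mean of at least 10 TPM in a group, are given in every library by rule; the others are given by range, except PDE3B, PDE4D, PDE5A, ADCY6, AKAP12, PRKG1 and CREB1, chosen after their values were seen for values in every library, and genes of other lists by the call, up to 4 a list, with some uncalled ones named after their values were seen. The members, lists and markers were chosen with earlier results of these data known. Alternatives were other pseudocounts, filters and scalings, no variance trend, the replicate number as a block, and each library left out; testing the same genes without a pEF library, and averaging pgEpiSC replicates 1 and 4, were added after the data were seen.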

Additional observations from a re-analysis of the deposited data

Results flagged for a closer look

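Among 129 values screened in the 4 pgEpiSC libraries (36 levels of tested members and 93 shares and sums) 5 had 1 library far from the other 3 by Dixon's criterion; chance alone flags about 1 in 20 groups. All 5 were shares within a family. In pgEpiSC library 3 the AKAP8 share of the anchoring proteins was 26.4%, where the others were at 35.6 to 36.7%, and the AKAP6 share was 0.196%, above the others at 0.0934 to 0.101%. In the same library the cAMP-specific genes held 52.9% of phosphodiesterase TPM, where the others were at 62.8 to 63.4%. In pgEpiSC library 2 the AKAP9 share was 24.1%, where the others were at 38.2 to 40.5%, and the ADCY10 share of the cyclases was 0.0545%, where the others were at 0.314 to 0.347%; ADCY10 is a gene under 0.02 TPM in every library. The shares of AKAP8 and AKAP9 in these libraries were still above those of both pEF libraries.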

How the results depend on the processing

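As deposited, 1874 genes were called higher and 983 lower, with 4 members higher and 12 lower. The counts (all genes higher and lower, then members higher and lower) were 2985, 3109, 8 and 21 after median-ratio scaling, 2139, 2924, 6 and 20 with each library rescaled to 1000000, 967, 881, 1 and 10 with a pseudocount of 5, 787, 873, 1 and 8 without a filter, 1185, 368, 1 and 0 with a mean of at least 5 TPM, where 6 members were tested, 1633, 898, 3 and 7 without the variance trend, and 2766, 2893, 7 and 20 with scaling and pgEpiSC replicates 1 and 4 averaged. With the replicate block they were 2204, 893, 3 and 9; libraries that share a number deviated with r = 0.098 (number 1) and 0.172 (number 2), over 2 numbers only, so the numbers are not taken to pair the samples. With each library left out, with or without scaling and with or without the same genes tested, they ran from 252 to 2951, 194 to 2931, 0 to 8 and 0 to 22; a lone pEF library was assumed to vary like the pgEpiSC group. Without a filter none of the 4 increases called as deposited kept its call, so the 1 member higher there was another gene. The 8 lower there were not all among the 12 called as deposited. No called member changed direction in any alternative run that tested it. For 14 of the 16 the filter had fixed, or for RAPGEF4 favoured, the direction, so this shows nothing by itself for them. The log2 fold changed sign in 6 uncalled members. AKAP1 was at -0.20 rescaled to 1000000 and from -0.17 to 0.75 with a library left out. PRKAR2B was at -0.16 rescaled and from -0.17 to 0.69. AKAP7 was at -0.31 scaled, -0.67 rescaled, -0.058 with the replicate block, -0.34 scaled with replicates 1 and 4 averaged, and from -0.83 to 0.24. PDE6D was at -0.26 scaled, -0.52 rescaled, -0.26 scaled and averaged, and from -0.38 to 0.54. AKAP11 was at 0.013 with a pseudocount of 5, 0.15 with the block, 0.20 averaged, and from -0.79 to 0.37. PRKACA was at 0.014 with a pseudocount of 5, 0.23 with the block, 0.15 averaged, and from -0.58 to 0.23. The causes were not tested. Depth cannot be read from TPM, and 2 pEF libraries limit every comparison. Symbols with further letters would add 2 members, for 58.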
